A study of Mus musculus with 3 samples.

Results

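The libraries were made from RNA of the B16 mouse melanoma line, here stably carrying an empty expression vector. The 3 samples, called Mock replicates 1, 2 and 3, form a single group with no other treatment, genotype or time, so the design holds no comparison between groups. The labels describe 1 stable line and do not say whether the replicates were separate cultures or whether the line is a single clone. The p-values below therefore reflect no more than the scatter among these 3 samples, and that scatter may be technical. The genes described here are the kinesins, the centromere and kinetochore genes, the spindle checkpoint genes, the chromosomal passenger complex, the Aurora and Polo-like kinases and the Ki-67 gene Mki67. They were chosen by gene symbol and make up 80 of the 17285 rows of the count table. Of the 80 rows, 37 are kinesins named Kif and a number, among them 11 mitotic and 13 transport kinesins. These classes are compared with each other gene by gene within a library. The kinesin Cenpe is listed with the Cenp genes, and the Kifc genes are outside the 80. One further row whose symbol begins like a kinesin, Kif1bp, is a kinesin binding protein and no motor.

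Kinesins are motor proteins that walk along microtubules or shorten their ends, using ATP. Mitotic kinesins build the spindle, move and align chromosomes and help to divide the cell, whereas transport kinesins carry vesicles, organelles and other cargo through the cytoplasm at all stages of the cell cycle. Kinetochores assemble on centromeric chromatin marked by the histone variant CENP-A and bind spindle microtubules, and the spindle checkpoint holds the cell before anaphase until they are attached. Most genes of these mitotic groups are transcribed in cycling cells and peak between late S phase and mitosis.

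The libraries held 9328087, 9456501 and 9438894 counts after rounding, so that 1 read was worth about 0.106 CPM (counts per 1000000 TMM-scaled counts of the library) and 3 counts over the 3 libraries 0.106 CPM. The 80 genes collected 0.447%, 0.444% and 0.442% of the counts of replicates 1, 2 and 3. All 8 listed pigment cell markers lay above 1 CPM, with a summed level of 23050 to 24384 CPM. Of 15 listed leukocyte, fibroblast, endothelial and neuronal marker genes with a row, 1 had any read, the fibroblast marker Pdgfra with 5 reads, and the other 14 stood at 0.

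Most of the 80 genes were detected well above background. Tested against a level of 1 CPM with edgeR's quasi-likelihood test and Benjamini-Hochberg adjustment over all genes with a count, 69 members were above it, 5 below it, 1 was unresolved and 5 had no count. Over all 14408 genes tested, 74.3% were above 1 CPM and 20.2% below it. Of the 80 members, 61 averaged over 10 CPM and 14 over 100 CPM. The median of the 80 members was 6.55 CPM per kilobase of merged exons, against 2.86 CPM per kilobase over all rows of the table with a known length. In a bulk sample, fewer cells that express a gene and less RNA per cell cannot be told apart, so none of these levels says what share of the cells was dividing.

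All 11 mitotic kinesins were above 1 CPM. The highest was Kif20a, also called MKLP2, which works in cytokinesis, with 147, 137 and 135 CPM in replicates 1, 2 and 3 (mean 139 ± 6.28, SD, n = 3). The gene lies at chr18:34624613-34633277 on the plus strand of GRCm38.p6, and 29.3% of its exon length overlaps Cdc23, a gene of the anaphase promoting complex, on the opposite strand. The use of strand in counting is not given in the sources used here, so reads of the overlap can belong to either gene. Kif11, the Eg5 motor that pushes spindle poles apart, had 120.2, 117 and 124 CPM (mean 120.2 ± 3.22, SD, n = 3). Kif18b, which controls the length of astral microtubules, had 97.9, 96.1 and 101 CPM (mean 98.2 ± 2.28, SD, n = 3). The replicates of Kif11 and Kif18b lay close together, with no library standing apart.

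The other 8 mitotic kinesins averaged between 18.4 and 81.9 CPM. Kif22, a chromosome arm motor, averaged 81.9 ± 2.93 CPM, and Kif2c, the centromeric microtubule depolymerase MCAK, averaged 70.5 ± 3.19 CPM (SD, n = 3 each). Kif4, a chromosome-bound motor of condensation and the central spindle, averaged 69.8 ± 2.78 CPM, and 15.1% of its exon length overlaps Pdzd11 on the opposite strand. Kif23, the motor subunit of centralspindlin, averaged 48.8 ± 3.34 CPM and Kif20b, another cytokinesis motor, 48.2 ± 1.96 CPM (SD, n = 3 each). At the low end stood Kif15, a spindle motor with a role that overlaps that of Kif11, at 25.7 ± 3.41 CPM, and Kif14, a cytokinesis motor, at 25.2 ± 1.35 CPM. Kif18a, which dampens chromosome movements at the metaphase plate, was the lowest at 18.4 ± 2.001 CPM (SD, n = 3). Per kilobase the 11 genes ran from 1.87 for Kif18a to 32.1 for Kif20a.

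Transport kinesins held both the most abundant kinesins and several that were absent or nearly so. Of 13, 9 were above 1 CPM, 1 was below it, 1 was unresolved and 2 had no count. Kif5b, the widely expressed heavy chain of conventional kinesin, had 244, 257 and 245 CPM in replicates 1, 2 and 3 (mean 248.6 ± 7.61, SD, n = 3). The gene lies at chr18:6201002-6242174 on the minus strand. Kif1c, a motor of vesicle transport, had 218, 215 and 215 CPM (mean 216 ± 1.82, SD, n = 3). These were the kinesins with the most reads in every library. Kif3c, a motor subunit of the kinesin-2 family, had 108, 113 and 112 CPM (mean 111 ± 2.61, SD, n = 3), and 35.3% of its exon length overlaps the antisense gene 1110002L01Rik. Kif3a, the subunit that pairs with Kif3b or Kif3c, had 70.1, 72.1 and 67.6 CPM (mean 69.9 ± 2.26, SD, n = 3). Kif13a, an endosomal motor that brings melanosome cargo to the cell periphery in pigment cells, had 25.6, 25.3 and 26.4 CPM (mean 25.8 ± 0.55, SD, n = 3).

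The low values among transport kinesins were those of Kif5c, Kif5a, Kif1a and Kif17, which are used mainly in neurons. Not every kinesin known from neurons was low, as Kif21b, which moves in dendrites, averaged 113 CPM. Kif5c had 2 reads over the 3 libraries and was below 1 CPM by edgeR (adjusted p = 7.24e-04). DESeq2's Wald test did not call it (adjusted p = 0.218). That test called 0 genes of the whole table below 1 CPM, so it cannot check such a call. Kif5a had 17 reads, 0.75, 0.85 and 0.21 CPM in replicates 1, 2 and 3, and was unresolved against 1 CPM (edgeR adjusted p = 0.112). Kif1a, which carries synaptic vesicle precursors, and Kif17, a dendritic motor, had no read, which allows up to 0.106 CPM averaged over the 3 libraries. The 4 neuronal markers also had no read. Kif1b, a motor of mitochondria and vesicles, averaged 69.6 ± 0.56 CPM and the kinesin-2 subunit Kif3b 61.2 ± 1.64 CPM (SD, n = 3 each). Kif16b, an early endosome motor, averaged 45.4 ± 2.97 CPM and Kif13b, a close relative of Kif13a, 20.4 ± 0.45 CPM (SD, n = 3 each).

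**Figure D1:**
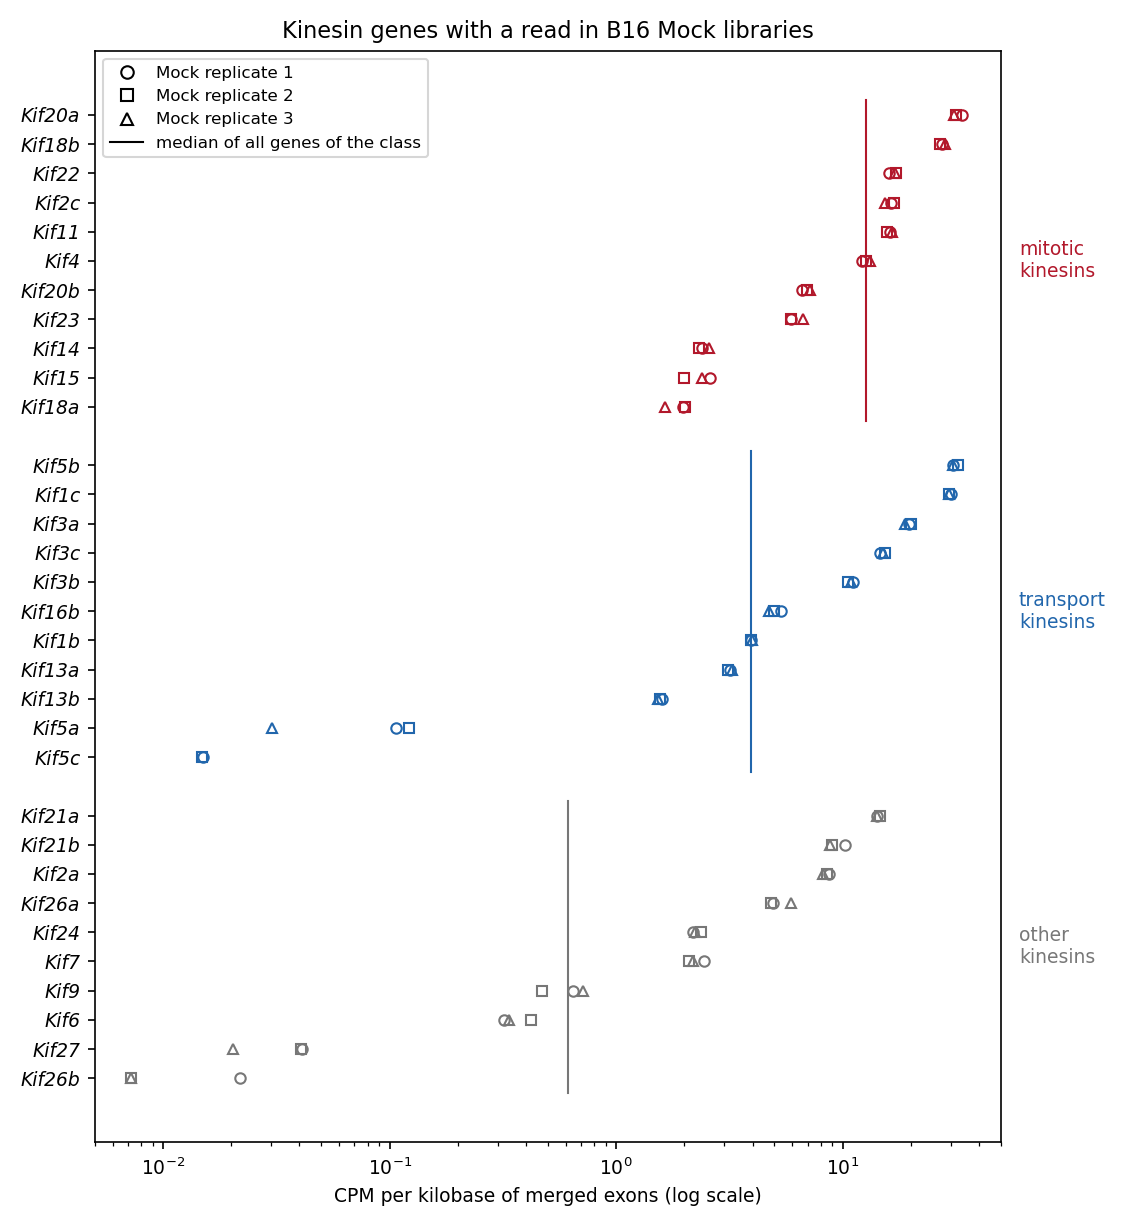
Level of each kinesin named Kif and a number that had a read, in CPM per kilobase of merged exons on a log axis. A symbol marks each Mock replicate. A line marks the median of each class over all its genes, the ones without reads included. Mitotic kinesins span 1.87 to 32.1 CPM per kilobase, while transport kinesins run down to Kif5c with 2 reads in all; values at 0, among them Kif5c in replicate 3, are not drawn.

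Set side by side per kilobase, the typical mitotic kinesin was above the typical transport kinesin in all 3 libraries, while the top of both classes met. The median over the 11 mitotic kinesins was 12.1, 12.7 and 13.2 CPM per kilobase in replicates 1, 2 and 3, against 3.96, 3.92 and 3.98 CPM per kilobase over the 13 transport kinesins. On the log2 scale, with 0.1 CPM per kilobase added, the medians differed by 1.59, 1.67 and 1.70 (mean 1.65 ± 0.05, SD, n = 3). This is a description of 3 libraries of one group, and it was not tested. The size of the difference depends on how it is taken: it was 1.08 with the longest transcript as length, 0.79 with the coding length, 0.58 on reads without length, and 0.77 when kinesins under 10 counts were left out. With Kif2a and Cenpe counted as mitotic motors and Kif21a and Kif21b as transport motors it was 0.75. Summed over genes without regard to length, the order was the opposite: mitotic kinesins made up 747, 738 and 754 CPM and transport kinesins 869, 878 and 860 CPM. Kif5b and Kif1c alone carry most of the transport sum.

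Each gene was also set against Kif5b within the same library, per kilobase, with edgeR. Of 74 members tested, 3 were higher than Kif5b, 68 lower and 3 unresolved, while of all 14096 genes tested 11.9% were higher and 86.6% lower. Among mitotic kinesins 10 of 11 were lower and Kif20a was unresolved, with a median log2 ratio of -1.30. Among the 10 transport kinesins tested 9 were lower and Kif1c was unresolved, with a median log2 ratio of -2.81. Kif5b is itself the transport kinesin with the highest per-kilobase mean, so no other gene of that class stood above it. The transport median leaves out Kif5b and the genes without a read, so the medians of the classes do not cover like sets of genes. Kif20a stood at a log2 ratio of 0.05 (SD 0.09 over libraries, edgeR adjusted p = 0.245), and this turned to -0.12 with the longest transcript and to -0.71 with the coding length. Kif1c stood at -0.07 (SD 0.05, edgeR adjusted p = 0.0708), and was lower than Kif5b with the longest transcript (-0.35) and the coding length (-0.41). Kif18b was lower than Kif5b by a small margin with merged exons, at -0.18 (SD 0.07, edgeR adjusted p = 3.02e-05). The margin was wider with the longest transcript and the coding length. Kif11 was at -0.95 (SD 0.08), Kif3a at -0.68 (SD 0.03) and Kif18a, the lowest mitotic kinesin, at -4.06 (SD 0.14), all lower by the same test.

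**Figure D2:**
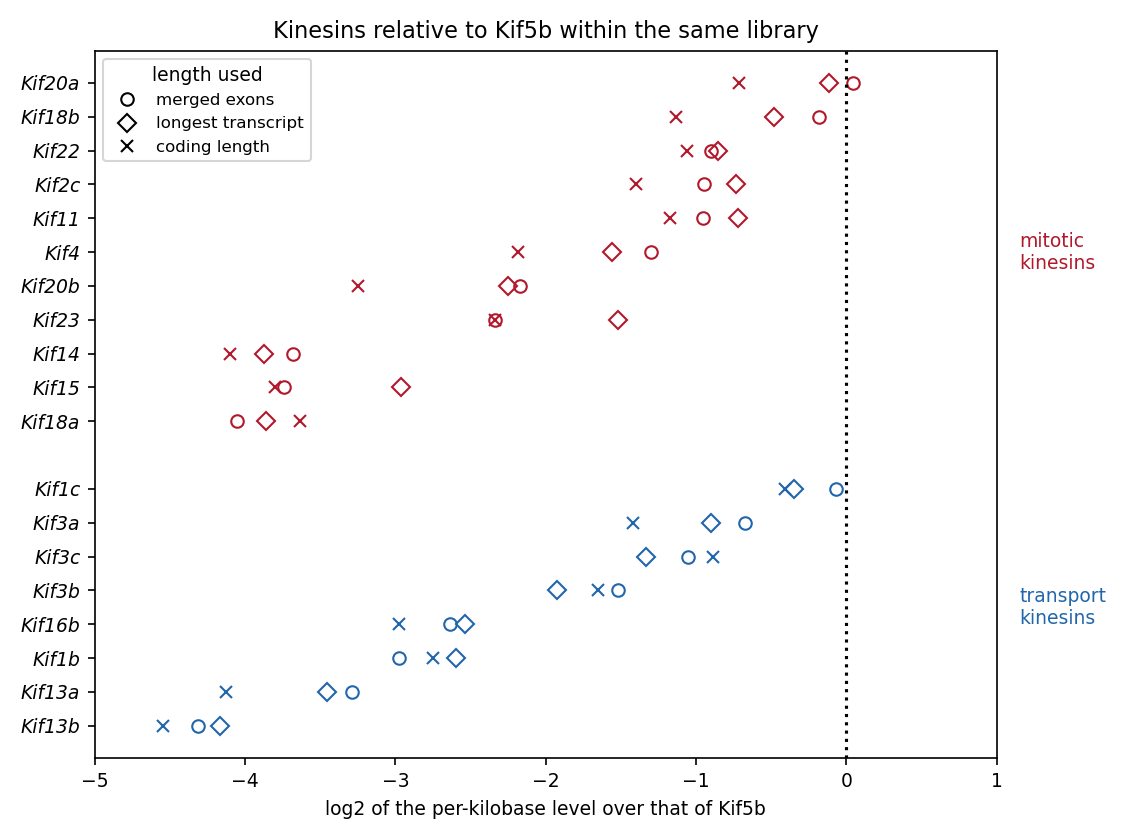
Log2 ratio of the per-kilobase level of each kinesin to that of Kif5b in the same libraries, for 11 mitotic kinesins above 8 transport kinesins with enough reads to draw, with a symbol for each of 3 ways to take gene length. Only Kif20a reaches 0, at 0.05 with merged exons, where Kif18b and Kif1c lie next to it. With the coding length the value of Kif20a falls to -0.71.

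Ranked per kilobase over the kinesins named Kif and a number, many neighbours could not be separated by their replicate values. Kif20a (32.1 ± 1.45) and Kif5b (31.1 ± 0.95 CPM per kilobase, SD, n = 3 each) overlapped, whereas Kif1c (29.7 ± 0.25) lay below both in every library and above Kif18b (27.5 ± 0.64). Kif22, Kif2c and Kif11, at 16.7, 16.2 and 16.1 CPM per kilobase, overlapped from one to the next. So did Kif20b with Kif23 at 6.93 and 6.17, and Kif14 with Kif15 at 2.43 and 2.33 CPM per kilobase. Kif11 was 1.27-fold above Kif4 per kilobase (SD 0.05, n = 3), and 1.78-fold and 2.02-fold above it with the longest transcript and the coding length.

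The promoters of both classes were read for a pair of short elements known from genes transcribed late in the cell cycle, the cell cycle genes homology region (CHR, TTTGAA or TTCAAA on the other strand) and the CCAAT box (CCAAT or ATTGG on the other strand). The windows came from RefSeq on GRCm38.p6 and run from 250 bases before to 50 bases after an annotated start. A CHR and a CCAAT match can share 1 base, and such cases were counted for both. Of the 80 members, 70 had a window in the tables used here, with 79 windows in all, since some genes have several starts; Aurkb, Incenp, Kif5a, Kif5b, Kif13b, Kif19a, Kif20a, Kif21b, Kif28 and Spc24 had none and Kif1bp was matched under its current symbol. The stretches below are shown for the mitotic and transport kinesins with the most reads that had a window, for Kif1a as the only transport kinesin with a CHR match and for Mki67. Each covers 120 bases before and 10 bases from the start, 5′ to 3′ on the gene's strand, and capitals mark CHR and CCAAT letters on either strand.

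Kif11, chr19:37376262-37376391, plus strand: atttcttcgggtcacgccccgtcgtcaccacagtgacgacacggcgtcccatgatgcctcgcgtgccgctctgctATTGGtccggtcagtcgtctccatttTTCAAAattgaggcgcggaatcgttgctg

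Kif18b, chr11:102925115-102925244, minus strand: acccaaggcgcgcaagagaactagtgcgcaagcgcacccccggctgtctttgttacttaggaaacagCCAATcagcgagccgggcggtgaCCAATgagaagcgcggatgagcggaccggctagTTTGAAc

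Kif22, chr7:127042411-127042540, minus strand: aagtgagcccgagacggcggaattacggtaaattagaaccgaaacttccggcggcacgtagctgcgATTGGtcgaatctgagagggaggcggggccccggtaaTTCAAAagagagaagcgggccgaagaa

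Kif1c, chr11:70700428-70700557, plus strand: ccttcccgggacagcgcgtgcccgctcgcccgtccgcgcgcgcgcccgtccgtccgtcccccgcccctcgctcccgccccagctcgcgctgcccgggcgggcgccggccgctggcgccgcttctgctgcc

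Kif3c, chr12:3365012-3365141, plus strand: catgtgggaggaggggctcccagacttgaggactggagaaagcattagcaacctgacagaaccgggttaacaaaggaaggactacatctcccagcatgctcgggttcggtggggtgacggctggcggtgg

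Kif3a, chr11:53567249-53567378, plus strand: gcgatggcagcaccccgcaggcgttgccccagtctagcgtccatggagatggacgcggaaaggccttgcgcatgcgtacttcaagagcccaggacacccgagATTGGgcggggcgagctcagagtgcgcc

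Kif1a, chr1:93082471-93082600, minus strand: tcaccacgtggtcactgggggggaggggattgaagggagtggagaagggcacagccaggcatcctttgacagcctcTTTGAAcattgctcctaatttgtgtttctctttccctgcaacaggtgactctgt

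Mki67, chr7:135716370-135716499, minus strand: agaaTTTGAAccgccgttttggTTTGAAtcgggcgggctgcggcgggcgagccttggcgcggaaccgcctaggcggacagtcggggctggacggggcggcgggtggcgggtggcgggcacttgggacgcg

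Kif11, Kif18b and Kif22 carry a CCAAT box upstream of a CHR match, with the CHR beginning 19 bases before the start in Kif11, at base 4 after it in Kif18b and 17 bases before it in Kif22. Among the stretches of transport kinesins, Kif1c and Kif3c show neither element, Kif3a shows a CCAAT box and Kif1a, which had no read, a CHR match. The Kif1a stretch belongs to a start inside the gene, and the window at its upstream start held no CHR letters. Over all windows, CHR letters were present in 9 of 10 mitotic kinesin windows (90%), in 1 of 12 transport kinesin windows (8.33%) and in 2198 of 16765 windows of genes in the table (13.1%). A CHR match within 30 bases of the start was present in 7 of 10 mitotic and in 0 of 12 transport kinesin windows, against 2.11% of windows of genes in the table. CCAAT letters were present in 60%, 33.3% and 37.6% of the same sets of windows, and both elements together in 6 of 10, in 0 of 12 and in 5.34%. Kif18a was the only mitotic kinesin with a window but no CHR letters. A match describes letters in the window and is neither a shown binding site nor a cause of the level, and a missing match says only that these letters are not in this window.

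**Figure D3:**
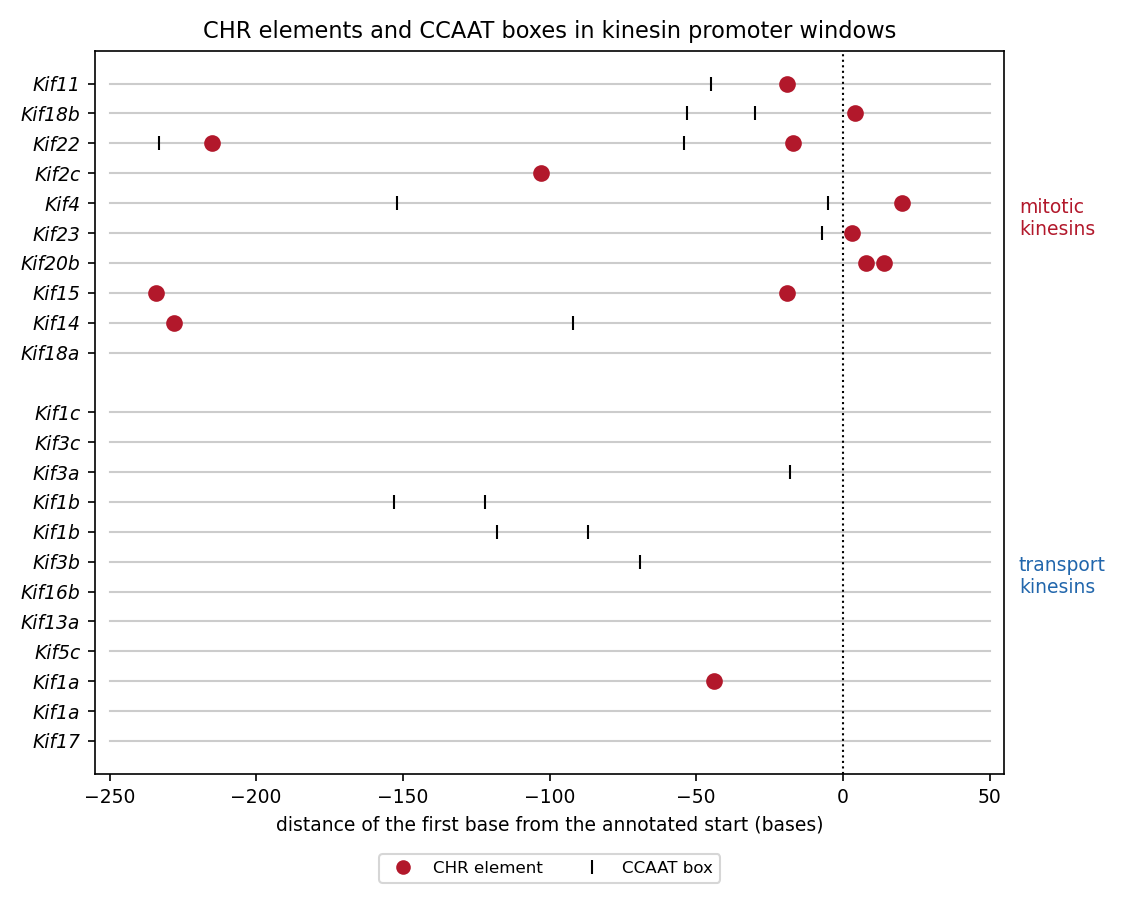
Position of CHR matches (filled circles) and CCAAT boxes (ticks) relative to the annotated start in windows of 10 mitotic and 12 transport kinesin starts, in bases, with the start at 0. Kif1a and Kif1b each have 2 windows, of which those of Kif1b overlap; circles gather around the start in mitotic kinesins, where 7 of 10 windows hold one within 30 bases.

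The remaining 13 kinesins are depolymerases, ciliary motors and regulators of microtubule growth, and they were the group with most genes at or near 0. Of 13, 8 were above 1 CPM, 2 below and 3 had no count. Kif21b, which limits microtubule growth and moves in dendrites, had 124, 109 and 107 CPM in replicates 1, 2 and 3 (mean 113 ± 9.71, SD, n = 3), highest in replicate 1. Kif21a, its close relative, had 92.0, 94.5 and 92.1 CPM (mean 92.9 ± 1.46), and Kif2a, a depolymerase active in mitosis and in neurons, 55.7, 54.5 and 52.3 CPM (mean 54.1 ± 1.71, SD, n = 3 each); 19.2% of the exon length of Kif2a overlaps Dimt1 on the opposite strand. Kif26a, an atypical kinesin without motor activity, Kif24, a centriolar regulator of cilia, and Kif7, a ciliary regulator of Hedgehog signalling, averaged 36.2, 18.1 and 10.3 CPM. Kif9 and Kif6, motors known from cilia and flagella, averaged 2.62 and 2.16 CPM and lay above 1 CPM by edgeR but not by DESeq2's Wald test (adjusted p = 0.263 and 0.446). Kif26b and Kif27, with 5 reads each, were below 1 CPM (edgeR adjusted p = 0.00184 and 0.00129). DESeq2's Wald test (adjusted p = 0.411 each) called 0 genes of the whole table below 1 CPM and cannot check these calls. Kif12, Kif19a and Kif28 had no read. The kinesin binding protein Kif1bp, which holds kinesins off microtubules, averaged 49.1 ± 1.85 CPM (SD, n = 3).

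The inner centromere and the constitutive centromere associated network (CCAN), which bridges CENP-A chromatin to the outer kinetochore, were detected in all members but 1 at over 1 CPM. Of 17 genes, 16 passed that test and Cenpb was below 1 CPM; the median was 5.06 CPM per kilobase. Cenpa, the centromeric histone variant at chr5:30666777-30674830, had 74.7, 81.5 and 78.8 CPM in replicates 1, 2 and 3 (mean 78.3 ± 3.44, SD, n = 3). Cenpi had 39.96, 41.0 and 41.8 CPM (mean 40.9 ± 0.92) and Cenpc1, which binds CENP-A nucleosomes, had 32.5, 29.5 and 29.9 CPM (mean 30.6 ± 1.63, SD, n = 3 each). Cenpb, which binds a repeat motif in centromeric DNA, had 5 reads, 4 of them in replicate 1, and was below 1 CPM by edgeR (adjusted p = 0.00586) but not without replicate 3 (edgeR adjusted p = 0.0894). It is the only member with a single annotated exon, and whether the counting of such a gene sets its low value was not tested. DESeq2's Wald test did not call Cenpb (adjusted p = 0.411), but called 0 genes of the whole table below 1 CPM and cannot check the call. The genes Cenpm, Cenpq, Cenpn, Cenpo, Cenpw, Cenpx, Cenph, Cenpt, Cenpl, Cenpu, Cenpk and Cenps had means of 7.12 to 28.7 CPM. The lowest of the others was Cenpp at 3.37 ± 0.16 CPM (SD, n = 3), which lay above 1 CPM by edgeR but not by DESeq2's Wald test (adjusted p = 0.0851).

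Subunits that act in one CCAN subcomplex did not have equal levels per kilobase. In CENP-H/I/K/M, Cenpm was 12.5 ± 1.38-fold above Cenpk, and in CENP-O/P/Q/U, Cenpq was 8.37 ± 0.79-fold above Cenpp (SD, n = 3 each). In CENP-T/W/S/X the highest to lowest ratio was 5.07 ± 0.35, Cenpx over Cenpt, and in CENP-L/N it was 3.75 ± 0.31, Cenpn over Cenpl. With the coding length in place of merged exons the CENP-H/I/K/M ratio was 6.57-fold, the CENP-L/N ratio 2.22-fold, and the CENP-T/W/S/X ratio 10.02-fold with Cenpw at the top. Part of the exons of Cenpu (26.7%), Cenpo (19.0%) and Cenpp (12.3%) overlaps a gene on the opposite strand. Of the 4 other Cenp genes, Cenpf, a large protein of the outer kinetochore and nuclear envelope, had 87.4, 86.4 and 82.1 CPM (mean 85.3 ± 2.82, SD, n = 3). Cenpe, the kinetochore kinesin that brings chromosomes to the metaphase plate, had 47.0, 48.1 and 45.8 CPM (mean 47.0 ± 1.151), and Cenpj, a centriole protein, had 8.33, 9.86 and 11.03 CPM (mean 9.74 ± 1.35, SD, n = 3 each). Cenpv averaged 8.25 ± 0.55 CPM (SD, n = 3).

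The Ndc80 complex, the main microtubule binder of the outer kinetochore, had all 4 subunits above 1 CPM. Nuf2 had 69.8, 66.8 and 70.3 CPM in replicates 1, 2 and 3, while its partner Ndc80 had 28.4, 27.3 and 30.02 CPM. Spc25 had 21.3, 28.0 and 26.6 CPM and Spc24 had 21.4, 20.9 and 24.0 CPM, the pair that faces the chromosome. Per kilobase, Nuf2 was 2.47 ± 0.06-fold above Ndc80 (SD, n = 3), the extremes of the complex, and 2.39-fold and 3.35-fold with the longest transcript and the coding length.

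All 6 spindle checkpoint genes were above 1 CPM, with a median of 18.5 CPM per kilobase and a range from 4.31 for Ttk to 26.6 for Bub1b. Bub3, the platform on which Bub1 and the Bub1b product BubR1 work, had 165, 166 and 176 CPM (mean 169 ± 6.28, SD, n = 3). Mad2l1, which carries the stop signal by locking onto Cdc20, had 138, 136 and 147 CPM (mean 141 ± 5.86, SD, n = 3). Both were highest in replicate 3. Bub1b had 117, 118 and 107 CPM (mean 114 ± 6.03), and Bub1 had 80.8, 92.4 and 92.5 CPM (mean 88.6 ± 6.75, SD, n = 3 each). Mad1l1, the kinetochore anchor of Mad2, had 27.1, 29.4 and 29.3 CPM and Ttk, the kinase Mps1 that starts the signal, had 19.4, 23.0 and 21.1 CPM. Per kilobase Bub1b, Bub3 and Bub1 lay within 1.32 ± 0.15-fold of each other and Mad2l1 was 2.14 ± 0.11-fold above Mad1l1 (SD, n = 3 each). With the coding length these ratios were 6.21-fold, Bub3 over Bub1, and 17.2-fold.

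The chromosomal passenger complex, which corrects faulty attachments and then directs cytokinesis, had its 4 mitotic genes above 1 CPM. Incenp, the scaffold, had 116, 119.9 and 114 CPM in replicates 1, 2 and 3. Birc5, the survivin subunit, had 106, 98.0 and 103 CPM, Cdca8, the borealin subunit, 92.5, 86.6 and 88.3 CPM, and the kinase Aurkb 81.7, 83.1 and 84.3 CPM. Per kilobase the 4 lay within 1.74 ± 0.02-fold (SD, n = 3), Birc5 over Cdca8, and within 5.53-fold by coding length, Birc5 over Incenp. Birc5 could not be separated from Kif5b per kilobase at a log2 ratio of -0.05 (SD 0.10, edgeR adjusted p = 0.235), but was lower at -0.43 with the longest transcript (edgeR adjusted p = 2.55e-23) and higher at 1.501 with the coding length. Aurkc, the germline paralog of Aurkb, had 5 reads and was below 1 CPM (edgeR adjusted p = 0.00407). This call was lost without replicate 1 (edgeR adjusted p = 0.0510) and without replicate 3 (0.0571). DESeq2's Wald test did not call Aurkc (adjusted p = 0.411), but called 0 genes of the whole table below 1 CPM and cannot check the call. Of the 31-base words of Aurkc, 67.1% are shared with other transcripts, mainly Gm12463.

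With merged exons as length, the kinases Plk1 and Aurka were the members highest above Kif5b per kilobase. With the coding length that order changed: Birc5 (log2 ratio 1.501), Mad2l1 (1.41), Cenpa (1.18) and Bub3 (1.01) were above Kif5b and ahead of Aurka (0.25). Plk1, which acts from mitotic entry to cytokinesis, had 138, 140.2 and 139.9 CPM in replicates 1, 2 and 3 and stood 2.04-fold above Kif5b per kilobase (log2 ratio 1.03, SD 0.04 over libraries, edgeR adjusted p = 8.99e-148), but below it (-0.16) with the coding length. Aurka, the spindle pole kinase, had 131, 129 and 125 CPM and stood 1.63-fold above Kif5b (log2 ratio 0.70, SD 0.05, edgeR adjusted p = 3.31e-68), in the same direction for each length tried. Per kilobase it was 1.20 ± 0.08-fold above Tpx2, its activator on the spindle (SD, n = 3). Plk3, a stress-responsive kinase, had 58.7, 57.8 and 57.7 CPM, and Plk4, which starts centriole duplication, averaged 55.02 ± 1.12 CPM. Plk2 was the lowest of the 5 at 14.1 ± 1.87 CPM (SD, n = 3 each). Of the 31-base words of Plk1, 18.7% are shared with other transcripts, mainly the pseudogene Plk-ps1.

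Mki67, which codes for the coat protein of mitotic chromosomes used as a marker of cycling cells, had the most reads of the 80 genes, with 454, 442 and 412 CPM in replicates 1, 2 and 3 (mean 436 ± 21.9, SD, n = 3). It lies at chr7:135689784-135716361 on the minus strand. Per kilobase it stood 1.39-fold above Kif5b (log2 ratio 0.48, SD 0.08, edgeR adjusted p = 1.44e-46), which turned to -0.91 with the coding length.

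**Figure D4:**
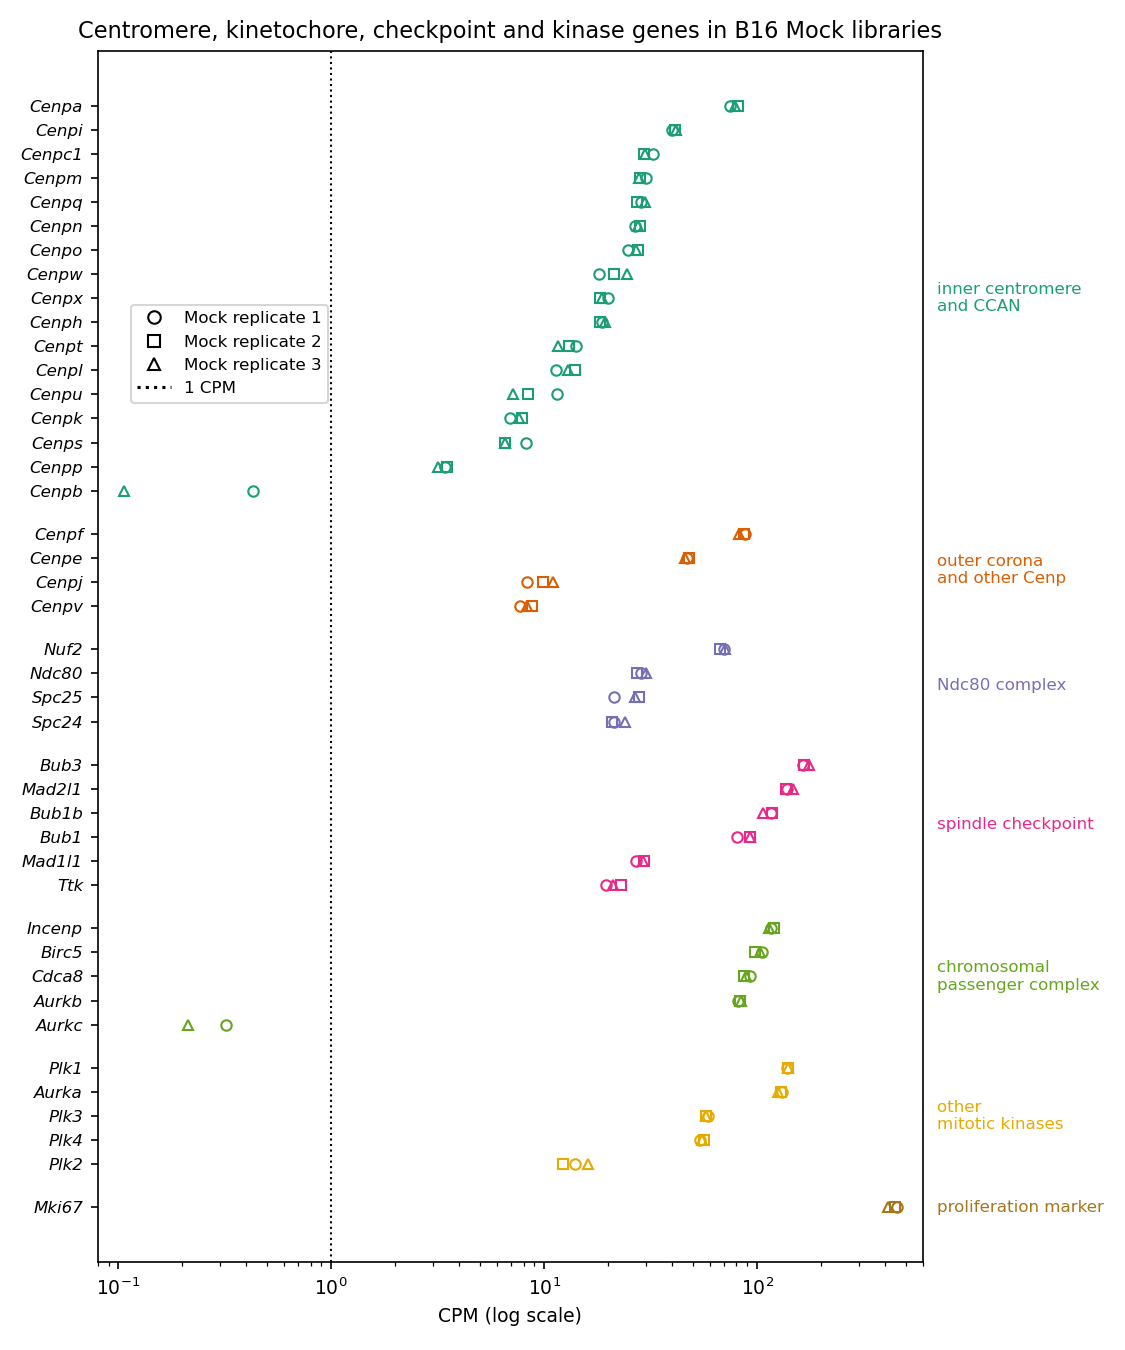
CPM of each centromere, kinetochore, checkpoint, passenger complex, kinase and Ki-67 gene on a log axis, with a symbol for each Mock replicate and a line at 1 CPM. Of 42 genes, 40 lie above the line and Cenpb and Aurkc, with 5 reads each, lie below it; values at 0 are not drawn.

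Few members varied between libraries. A Poisson deviance test (chi-square with 2 degrees of freedom, adjusted over the genes that averaged 10 counts or more) called 2 of 69 members variable beyond counting error, against 3.31% of the 11000 genes tested. Those were Mki67 (adjusted p = 0.00231), lowest in replicate 3, and Kif21b (adjusted p = 0.0198), highest in replicate 1. Neither was called without replicate 1, at adjusted p = 0.0964 for Mki67 and 0.912 for Kif21b, or without replicate 3, at 0.646 and 0.0788.

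Most genes that work with these members were above 1 CPM too, as were 74.3% of all 14408 genes tested. Of 20 kinetochore genes outside the 80, all 20 were above 1 CPM, led by Hjurp, the CENP-A chaperone, at 271 ± 8.03 CPM, Zwint at 179.5 ± 5.97 CPM and Pmf1 at 90.6 ± 1.73 CPM (SD, n = 3 each). All 19 genes of the anaphase promoting complex and its regulators were above 1 CPM, led by Anapc1, Ube2s and Anapc5 at 355, 351 and 339 CPM. All 20 spindle and cytokinesis genes were above it too, led by Tubg1 at 225 CPM, Ect2 at 204 CPM and Tpx2 at 198 CPM. Racgap1, the partner of Kif23 in centralspindlin, was 4.23 ± 0.32-fold above Kif23 per kilobase (SD, n = 3). Of 15 genes listed as kinesin partners and cargo adaptors, 13 were above 1 CPM and 2, Klc3 and Mapk8ip2, below it. The 15 include Kifc2 and Kifc3, which are themselves kinesins. Arl8b, a lysosomal kinesin adaptor, Trak2, a mitochondrial one, and Klc1, a light chain of conventional kinesin, led that list at 238, 179.9 and 167 CPM, and Kifap3, which joins the Kif3 motors to cargo, averaged 39.8 ± 3.12 CPM (SD, n = 3). The medians of the 4 lists were 6.47, 16.5, 14.3 and 17.2 CPM per kilobase in the order given.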

How the data were processed

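RNA from 3 Mock samples of one B16 line was sequenced; per the labels' protocols total RNA was column-purified and libraries were made by the sequencing provider. The authors' deposited table holds estimated counts (expected counts) of reads per gene symbol, not normalized, with 17285 rows; 13.1% of rows held a fractional value in at least 1 sample. Genome build GRCm38.p6 is taken from the submitters' processing notes. Aligner, counter, annotation, filters and strand setting: not given in the sources used here. Fractional counts occurred in 12 members: Spc24, Cenpu, Cenpo, Kif20a, Kif5b, Kif27, Cenpf, Cenpk, Birc5, Cenpc1, Kif2a and Kif11.

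Counts were rounded and scaled by TMM (factors 1.0034, 0.9977 and 0.9989). The 2877 rows with no count were not tested. Levels were tested against 1 CPM, and per-kilobase levels against Kif5b, by an intercept-only fit in edgeR 4.0.16 (R 4.3.3) and its quasi-likelihood F statistic, on both sides, Benjamini-Hochberg adjusted across the table at a threshold of 0.05. The counts of Kif5b entered this fit as fixed values, and their error is shared by all ratios to Kif5b. The p-values of the ratios take that error in only as scatter among the libraries. Lengths were merged exons of GENCODE M21 on GRCm38, matched by symbol for all 80 members; longest transcript and longest coding length were alternatives, the latter from GENCODE since no protein table was used here. Other alternatives used DESeq2 1.42.0, limma 3.58.1, other scalings, filters, pseudocounts and Kif3a in place of Kif5b, and left out each replicate. The tests were checked on simulated counts. At this depth 1 CPM equals 28.2 reads summed over the libraries, and edgeR's common biological coefficient of variation was 2.80%. The floor of 3 counts covers counting error only: the reads carry no stated molecular identifiers and may repeat a molecule.

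The members and lists were chosen with earlier results of these data known. Per-library values are given for the 3 members with the highest mean CPM of each role, for every subunit of the Ndc80 complex, checkpoint and passenger complex, and for Kif5b, Kif3a and Kif13a; members below 1 CPM or with no count are named. Other members were named after their values were seen. Kif2b, Kifbp and Ptprc had no row under these symbols and were not analysed here.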

Additional observations from a re-analysis of the deposited data

How the results depend on the processing

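Of 1106 single-gene values recomputed under the alternatives, 1069 kept their call. Their direction held as well, except that a change of direction between values both left uncalled was not counted. Of 105 summary values 88 stayed near their first value. No paired analysis was possible because all 3 samples belong to a single group. The difference between mitotic and transport kinesin medians (log2 1.65) kept its sign throughout: 1.08 with the longest transcript, 0.79 with the coding length, 0.58 without length, 1.46 with a pseudocount of 1, 0.77 with kinesins of at least 10 counts, 0.75 with the 4 motors reassigned, and 1.63 to 1.68 when a replicate was left out. The count of members below 1 CPM (5) was 0 with at least 10 counts, but that filter leaves all of these genes out before testing. It was 0 with DESeq2's Wald test and 3 to 5 without a replicate. The count of transport kinesins below 1 CPM (1) was 0 with the filter, which leaves out Kif5c, and 0 with the Wald test. DESeq2 called 0 genes of the whole table below 1 CPM, with 0 before adjustment at 0.05 as well, and left 8 members uncalled that edgeR called. Members higher than Kif5b per kilobase (3) numbered 5 with the coding length and 13 against Kif3a, where 2 mitotic kinesins (Kif18b and Kif20a) and 2 transport kinesins (Kif1c and Kif5b) were higher. Counting only cases called in at least 1 of the 2 fits, log2 ratios changed direction 20 times over all members. With the longest transcript these were Aurkb (0.048), Bub3 (0.030) and Kif20a (-0.12). With the coding length they were Birc5 (1.501), Mad2l1 (1.41), Cenpa (1.18), Bub3 (1.01), Cdca8 (0.084), Plk1 (-0.16), Kif20a (-0.71) and Mki67 (-0.91). Against Kif3a they were Birc5 (0.63), Kif1c (0.61), Aurkb (0.53), Kif18b (0.50), Incenp (0.46), Bub1b (0.45), Bub3 (0.31), Plk3 (0.23) and Bub1 (0.062). Members varying between libraries numbered 0 to 2 when a replicate was left out. The alternatives change lengths, the gene set against or the samples by construction; other causes were not tested.

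The 3 samples of a single group give levels and their spread, and no response to a treatment. Genes under about 10 reads over the libraries, among them Kif5c, Kif26b, Kif27, Cenpb and Aurkc, rest on single reads. Comparisons between genes depend on the length used, and the expressed transcript forms were not analysed here. For overlapping genes on opposite strands, the use of strand in counting is not given, so reads of the overlap can belong to either gene.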

Other observations

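Among the centromere, kinetochore, checkpoint, passenger complex, kinase and Ki-67 genes, CHR letters were present in 15 of 44 promoter windows (34.1%) and CCAAT letters in 28 of 44 (63.6%), against 13.1% and 37.6% of windows of genes in the table. The genes with a CHR match were Aurka, Bub1b, Bub3, Cdca8, Cenpa, Cenpf, Cenpl, Cenpn, Cenpw, Mki67, Ndc80, Plk1, Spc25 and Ttk, named after their windows were read. Both elements shared a window in 14 of 44 (31.8%), against 5.34% over the table. The 2 windows of Bub3 overlap and hold the same CHR and CCAAT sites, which were counted in both. Those of Cenpx overlap too and share CCAAT sites. In the other kinesins, 2 of 12 windows (16.7%) held CHR letters. They were the windows of Kif26b and Kif27, genes with 5 reads each and below 1 CPM by edgeR, and both also held CCAAT letters. In Kif26b the CCAAT box began 73 bases and the CHR 9 bases before the start.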
